A study of Mus musculus with 6 samples.

Results

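Galanin (Gal) and its receptors were followed in RNA bound to phosphorylated ribosomes of the mouse preoptic region. Rows were taken by their symbol, and 2 of the 4 symbols searched (Gal, Galr1, Galr2 and Galr3) stood in the table of 13724 gene entries. These were Gal and Galr1, with 1 entry each. Galr2 and Galr3 had no entry under these symbols and were not analysed here. The mice were wild type C57Bl6/J and met a warm environment in 3 numbered warm challenges, and the labels name no age or sex. From each challenge there was 1 library of total RNA (Input) and 1 of RNA pulled down with an antibody against ribosomal protein S6 phosphorylated at sites 244 and 247 (the immunoprecipitate, IP), which gave 3 libraries per group. Phosphorylation of S6 follows neuronal activity, so this method (PhosphoTRAP) enriches transcripts of active neurons. All 6 libraries came from warmed animals, and no group at another temperature was compared. The labels do not say whether a challenge was 1 animal or several, so p-values measure the spread between these libraries, which may be technical.

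Galanin is a neuropeptide made by many neurons of the preoptic area, where galanin neurons are known for roles in sleep, parental behaviour and body temperature. The peptide acts through G-protein-coupled receptors. Galr1 encodes one that couples to inhibitory G proteins of the Gi/o class, which lower cyclic AMP and open inwardly rectifying potassium channels, so that galanin usually quiets the neurons that carry it. Galr2 encodes a receptor that also couples to Gq proteins and phospholipase C.

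The values were RPKM (read counts divided by gene length and by library size), which can be compared between genes. Their sum lay between 374708 and 496125 per library, and the number of reads behind them is unknown. Inputs resembled each other, with rank correlations (Spearman, over all entries) of 0.962 to 0.984. IP 1 correlated with IP 2 and IP 3 at 0.942 and 0.931, below the 0.961 between IP 2 and IP 3. Among the 12328 genes that reached 1 RPKM in 3 or more libraries and were tested, 110 were higher and 406 lower in IP at a Benjamini-Hochberg adjusted p under 0.05 (limma on log2(RPKM + 1)). Across all genes the log2 folds had a median of -0.18, and 78.7% of the calls were lower in IP, against 51.4% after each library was scaled to a common median.

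Galr1 was higher in IP than in Input, in all 3 warm challenges and past the threshold. Gal also stood above its input in all 3 challenges, but the difference did not pass. Galr1 stood at 1.41 RPKM in input 1, 1.20 in input 2 and 1.23 in input 3. In the IP libraries it stood at 17.2 RPKM in IP 1, 5.37 in IP 2 and 4.65 in IP 3. The groups did not overlap: the inputs were close together, and IP 1 was far above the other IP libraries. Groups with every IP library above every input were seen in 6.85% of the genes tested. The mean of Galr1 was 1.28 ± 0.113 RPKM over the inputs and 9.07 ± 7.03 over the IP libraries (SD, n = 3). The log2 fold of Galr1 was 1.93 (SE 0.40, 95% interval 1.03 to 2.83, limma adjusted p = 0.0361), and 32 of the 12328 genes had a larger one. Galr1 was thus 1 of 3 galanin family genes tested that passed, where 0.892% of all genes tested passed in this direction. Without IP 1 the log2 fold of Galr1 was 1.40 (limma adjusted p = 0.0108). The call ended without any 1 of the other 5 libraries, at limma adjusted p-values of 0.0528 (without IP 3) to 0.144 (without input 1). Calls over all genes moved the same way, from 516 to 1693 without IP 1 and to 21 to 94 without 1 of the others. These changes are thus not particular to Galr1. With a pseudocount of 5 the call of Galr1 also ended (limma adjusted p = 0.0619).

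**Figure D1:**
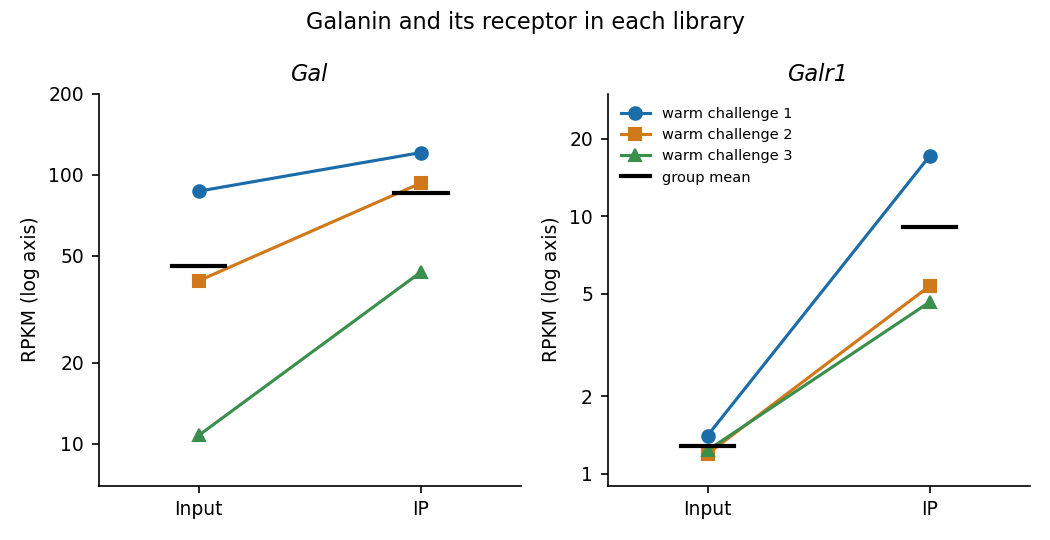
RPKM of Gal (left) and Galr1 (right) in the Input and IP library of each warm challenge, on log axes; lines join the libraries of 1 challenge and black bars are group means (n = 3). Galr1 lies between 1.20 and 1.41 RPKM in the inputs and between 4.65 and 17.2 in IP, while the Gal groups overlap.

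Gal was far more abundant than its receptor and varied strongly between inputs. It stood at 86.8 RPKM in input 1, 40.3 in input 2 and 10.8 in input 3. In the IP libraries it stood at 121 RPKM in IP 1, 93.0 in IP 2 and 43.5 in IP 3. Challenge 1 was highest and challenge 3 lowest in both fractions, and IP 3 lay below input 1, so the groups overlapped. The mean of Gal was 46.0 ± 38.3 RPKM over the inputs and 85.7 ± 39.1 over the IP libraries (SD, n = 3). The log2 fold of Gal was 1.19 (SE 0.65, 95% interval -0.27 to 2.65), with a limma adjusted p = 0.297. When challenge number entered the fit as a block, the SE of Gal was 0.29 and the 95% interval 0.50 to 1.89, at a limma adjusted p = 0.0616; this fit called 5.32% of all genes. A fold of this size is large among all genes, since 128 of 12328 were larger, but its adjusted p missed the threshold with and without the block. Without input 3 the log2 fold of Gal was 0.41 (limma adjusted p = 0.661), and without input 1 it was 1.86 (adjusted p = 0.194).

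**Figure D2:**
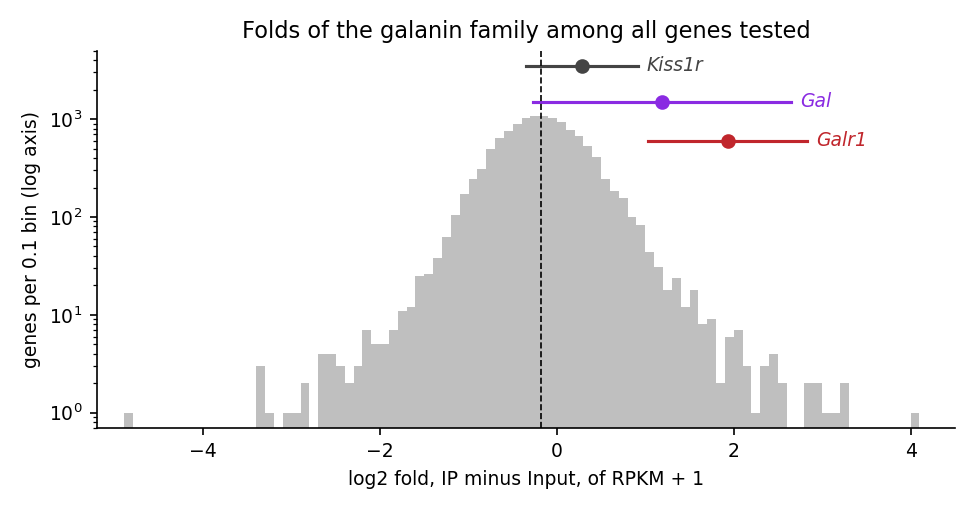
Histogram of the log2 folds (IP minus Input, log2(RPKM + 1)) of the 12328 genes tested, with a log count axis, and the folds of Kiss1r, Gal and Galr1 as points with 95% intervals; their height has no meaning and the dashed line is the median of all genes (-0.18). The interval of Galr1 (1.03 to 2.83) lies above 0, and that of Gal (-0.27 to 2.65) spans it.

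The ratio of IP to Input RPKM within each warm challenge sets ligand and receptor side by side. It takes the 2 libraries of a challenge as a pair, although values over all genes showed no pairing in challenge 1. For Galr1 the ratio was 12.2 in challenge 1, 4.49 in challenge 2 and 3.77 in challenge 3. In challenge 1 only 5 of 12328 genes had a larger ratio than Galr1, in challenge 2 there were 50 and in challenge 3 there were 163. For Gal the ratio was 1.39 in challenge 1, 2.31 in challenge 2 and 4.04 in challenge 3. The median gene had a ratio of 0.834, 0.873 and 0.874 in challenges 1, 2 and 3. Challenge 1 thus held the largest ratio of Galr1 and the smallest of Gal, and in challenge 3 the ratios of ligand and receptor were alike in size. IP above Input in all 3 challenges, as for both genes, was seen in 14% of the genes tested.

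The balance of ligand to receptor RNA within a library does not depend on how libraries are scaled. Gal RPKM was 61.6 times that of Galr1 in input 1, 33.7 times in input 2 and 8.72 times in input 3. It was 7.03 times that of Galr1 in IP 1, 17.3 times in IP 2 and 9.34 times in IP 3. Input 1 and input 2 were above all IP libraries and input 3 was among them. The log2 ratio of Galr1 to Gal was 1.33 higher in IP on average, 0.74 with a pseudocount of 1, 0.72 without input 1 and 2.13 without input 3. A 2-sided exact permutation test gave p = 0.3, but 3 against 3 libraries cannot go below 0.1, so the test could not have passed and decides nothing. By challenge the change in this log2 ratio was 3.13, 0.96 and -0.10, so challenge 3 showed almost none.

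Among all genes of each library, Galr1 had a higher rank in IP, above the median gene in IP 1 and below it in IP 2 and IP 3. In the inputs it exceeded 12.4% to 13.6% of the 13724 entries, and in IP it exceeded 71.0% in IP 1, 43.2% in IP 2 and 38.8% in IP 3. Gal exceeded 93.1% of entries in input 1, 84.9% in input 2 and 55.5% in input 3. In IP it exceeded 95.9%, 93.2% and 86.5% of entries in IP 1, IP 2 and IP 3.

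The spread of Gal among inputs was one of the widest in the table. Its log2(RPKM + 1) values had an SD of 1.47 among inputs, against a median of 0.23 over all genes tested, and only 12 entries varied more. The 12 were examined after their values had been seen, and include 2 entries of the symbol Cct6a with opposite patterns. Oxt, which encodes the hypothalamic peptide oxytocin, had 120 RPKM in input 1, 78.0 in input 2 and 5.71 in input 3. Ghrh, growth hormone-releasing hormone, had 10.5, 3.78 and 0.211 RPKM in the same inputs. Both peptide genes were, like Gal, highest in input 1 and lowest in input 3. Ppp1r1b, which encodes the DARPP-32 protein abundant in striatal neurons, had 7.60 RPKM in input 1, 16.1 in input 2 and 126 in input 3. Arpp21, Crym and an entry of Cct6a, also among the 12, rose in the same order. Atp5g2 and Fam183b, likewise among the 12, fell in the order of Gal. Summed RPKM of the 10 listed preoptic and hypothalamic region markers was 367 in input 1, 302 in input 2 and 185 in input 3. Without Oxt and Gnrh1, a split made after the values had been seen, the other 8 summed to 152, 158 and 151. These 8 still include the peptide gene Avp. Zic1, Lhx8 and Six3 had the highest levels among those of the 8 that were tested, and single markers went either way. In inputs 1, 2 and 3 Nkx2-1 had 20.9, 17.1 and 11.4 RPKM, and Lhx8 had 37.1, 54.9 and 59.6. Avp had 5.33, 4.28 and 0.289 RPKM, and Hmx2 had 2.34, 2.43 and 0.326. Zic1 was nearly level at 52.6, 51.1 and 51.3 RPKM. Among those tested, Lhx8 alone was highest in input 3. In these bulk libraries fewer cells of a type and less RNA per cell cannot be told apart, and the part of tissue content in the Gal values was not tested. Galr1 showed no such spread among inputs, where its SD was 0.07, with 7.1% of genes below it. Among IP libraries it varied widely, with an SD of 0.93 against a median of 0.34 and 96.5% of genes below it. The SD of Gal among IP libraries was 0.75, with 92.1% of genes below it.

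Genes whose profile over the 6 libraries lay nearest to that of Gal or Galr1 were found by the root mean square difference of centred log2(RPKM + 1) values. For Galr1 they were, in order, Nmur2 (a neuromedin receptor), Irs2 (an insulin receptor substrate), Pcsk1 (a prohormone convertase), Cdk12 (a kinase of transcription) and Gem (an activity-induced small GTPase), with differences of 0.13 to 0.26, against a median of 1.24 over all genes. All 5 were chosen for their likeness, which is a description. Nmur2 had 1.03, 1.12 and 0.931 RPKM in inputs 1, 2 and 3, and 16.2, 3.72 and 3.96 RPKM in IP 1, 2 and 3. Its values were thus close to those of Galr1 in level as well as in pattern, with IP 1 far above the other libraries. Pcsk1 had 5.45, 3.24 and 3.92 RPKM in inputs 1, 2 and 3, and 46.6, 12.6 and 15.1 RPKM in IP 1, 2 and 3.

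For Gal the nearest genes were Gng8 (a G-protein gamma subunit), Pnoc (the precursor of the opioid-like peptide nociceptin), Sncg (gamma-synuclein), Fau (a fusion of a ubiquitin-like and a ribosomal protein) and Prdx4 (a peroxiredoxin), with differences of 0.38 to 0.56 against a median of 1.21. Pnoc had 23.6, 13.7 and 6.72 RPKM in inputs 1, 2 and 3, and 55.6, 32.0 and 18.1 RPKM in IP 1, 2 and 3. As for Gal, challenge 1 was highest and challenge 3 lowest in both fractions, although Pnoc varied less among inputs. Gng8 had 26.7, 15.6 and 3.38 RPKM in the inputs and 21.9, 25.0 and 9.23 RPKM in IP, and so shared the input pattern of Gal but was lower in IP 1 than in input 1.

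**Figure D3:**
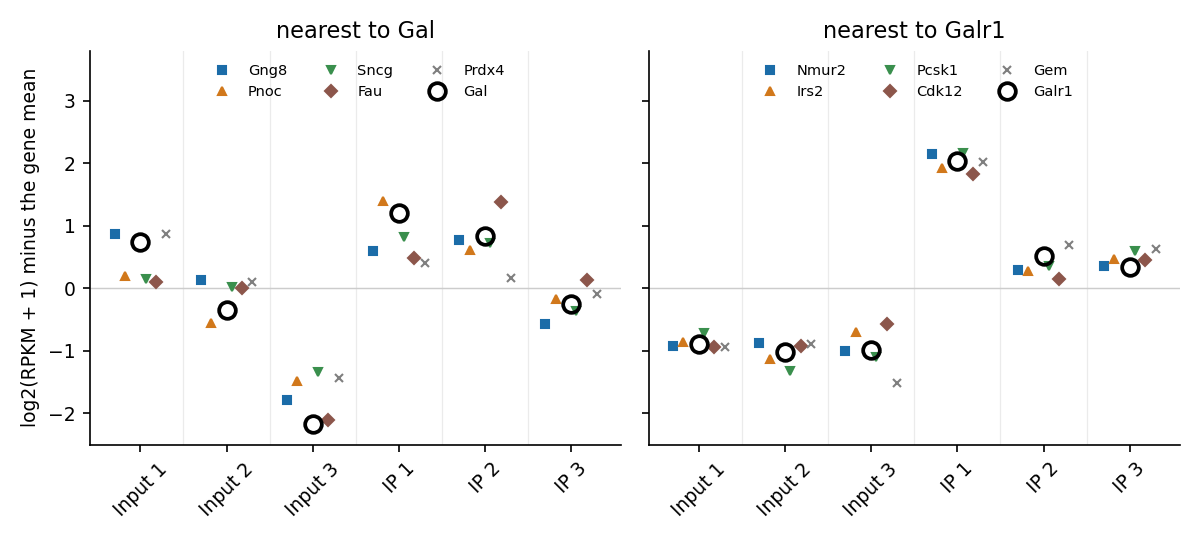
Log2(RPKM + 1) minus the mean of each gene, by library, for Gal (left, open circles) and Galr1 (right, open circles) and the 5 genes nearest to each. Galr1 and its neighbours are highest in IP 1, and Gal and its neighbours are lowest in input 3.

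Of the wider family, the table listed 3 of 8 symbols. Kiss1r, the kisspeptin receptor and a relative of the galanin receptors in sequence, stood at 0.692, 0.965 and 1.21 RPKM in inputs 1, 2 and 3 and at 0.648, 1.40 and 2.34 RPKM in IP 1, 2 and 3. The groups overlapped, with a log2 fold of 0.28 (SE 0.28, limma adjusted p = 0.580). Galp, Spx and Kiss1, which encode galanin-like peptide, spexin and kisspeptin, had no entry under these symbols.

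The genes through which galanin receptors act were mostly not called. Of 31 effector genes tested (G-protein subunits, adenylyl cyclases, phospholipases, potassium channels, regulators of G-protein signalling, arrestins and receptor kinases), 1 rose, 0 fell and 30 did not pass by limma, where 4.19% of all genes passed in either direction. At an unadjusted p under 0.05 there were 1 higher and 6 lower, and 24.4% of all genes had such a p. Their median log2 fold was -0.03, against -0.18 for all genes, and it was 0.13 after median scaling and 0.04 after quantile normalization. The gene that rose was Kcnj3, a subunit of the inwardly rectifying potassium channels that Gi/o-coupled receptors open. It stood at 7.90, 8.04 and 7.66 RPKM in inputs 1, 2 and 3, and at 14.0, 23.9 and 20.6 RPKM in IP 1, 2 and 3. The IP values of Kcnj3 were all above the inputs, as in 6.85% of the genes tested. Its log2 fold was 1.18 (SE 0.24, limma adjusted p = 0.0341), a call held in 1 of 6 omissions of a library, that of IP 1. Unlike Galr1, Kcnj3 was lowest in IP 1 among the IP libraries. The other subunits of this channel family did not pass: Kcnj5 had a log2 fold of -0.65, Kcnj6 -0.25 and Kcnj9 -0.03 (limma adjusted p = 0.125, 0.644 and 0.948). The inhibitory G-protein genes Gnai1, Gnai2 and Gnai3 had log2 folds of -0.77, -0.74 and -0.83 (limma adjusted p = 0.121, 0.104 and 0.113), and Gnao1, the main Go subunit of neurons, 0.61 (limma adjusted p = 0.363). Without IP 1, Kcnj3 and the gamma subunit gene Gng3 were higher and Gnai2 and Gnai3 lower in IP. That fit called 443 genes higher and 1250 lower over the whole table, so these 4 are no result about the effector genes. Without any 1 of the other 5 libraries none of the effector genes passed by limma, and 21 to 94 of all genes did. These further effector genes were named after their values had been seen.

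Genes that cut, store and release peptides such as galanin held 2 calls. By limma 2 of 16 rose, 0 fell and 14 did not pass, where 0.892% of all genes were higher. At an unadjusted p under 0.05 there were 7 higher and 0 lower, where 5.04% and 19.3% of all genes were. Their median log2 fold was 0.58. Pcsk1 had a log2 fold of 2.09 (SE 0.43, limma adjusted p = 0.0358). Vgf, an activity-regulated peptide precursor of dense-core vesicles, had a log2 fold of 2.37 (SE 0.44, limma adjusted p = 0.0295). With the challenge as a block 4 were higher, where 1.33% of all genes were, with Pcsk2, another convertase (log2 fold 0.86, adjusted p = 0.0497), and the granin Scg2 (1.36, adjusted p = 0.0467) added. Without IP 1 the count was 3, without IP 2 it was 1 and without any 1 of the other 4 libraries it was 0. Over all genes 443 were higher without IP 1, 16 without IP 2 and 4 to 29 without 1 of the others. Pam, which encodes the enzyme that amidates peptides such as galanin, had 19.0, 12.3 and 9.72 RPKM in inputs 1, 2 and 3, and 46.4, 17.3 and 14.8 RPKM in IP 1, 2 and 3. Its log2 fold was 0.76 (limma adjusted p = 0.296), and it was named after its values had been seen.

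Of 12 genes tested that mark preoptic galanin neurons or subsets of them, 0 passed in either direction by limma, where 4.19% of all genes did. At an unadjusted p under 0.05 there were 2 higher and 2 lower, where 24.4% of all genes had such a p. The median log2 fold was 0.18. The 2 with the smallest p were Npy1r, a neuropeptide Y receptor gene (log2 fold -1.05, limma adjusted p = 0.0648), and Slc32a1, the vesicular GABA transporter (0.74, limma adjusted p = 0.0975). Without IP 1, Slc32a1 was higher and Npy1r lower, in a fit that called 1693 genes over the whole table. Slc32a1 had 48.5, 40.5 and 37.2 RPKM in inputs 1, 2 and 3 and 59.2, 70.6 and 83.5 RPKM in IP 1, 2 and 3. The groups did not overlap, with every IP library above every input, as in 6.85% of the genes tested. Among the IP libraries Slc32a1 was lowest in IP 1, where Gal was highest. Of 10 other receptors for neuropeptides that couple to Gi proteins, 0 passed by limma, against 1 higher and 1 lower at an unadjusted p under 0.05, and the median log2 fold was 0.20. Without IP 1, Npy1r was lower. Beside Npy1r, the smallest p belonged to Sstr2, a somatostatin receptor gene, with a log2 fold of 0.73 (limma adjusted p = 0.153). Whether the fold of Galr1 differs from those of these receptors was not tested.

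**Figure D4:**
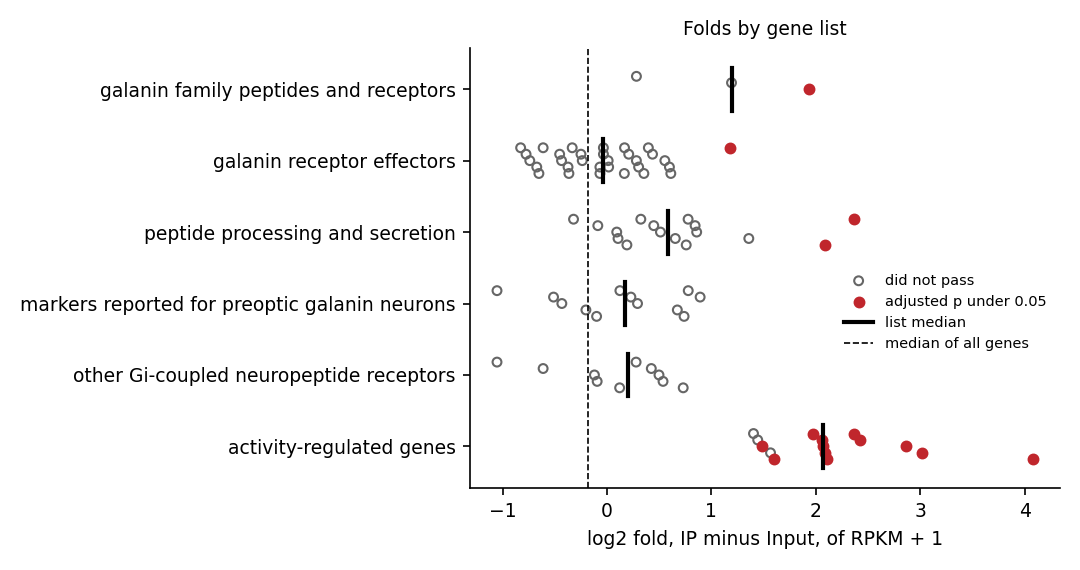
Log2 folds (IP minus Input, log2(RPKM + 1)) of the genes tested in 6 lists, with filled points for a limma adjusted p under 0.05, open points for others, thick bars for list medians and a dashed line at the median of all genes (-0.18). Galr1 is the filled point of the first list, and the effector list centres on -0.03 with Kcnj3 as its single filled point.

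Lists of markers moved between the fractions beside these results. Of 15 activity-regulated genes tested, 12 were higher and 0 lower in IP by limma, and their summed level was 98.3 to 125 RPKM in inputs and 457 to 776 RPKM in IP, where 0.892% of all genes were higher. Of the 15, 5 were highest in IP 1, as Galr1 was, 2 in IP 2 and 8 in IP 3. Without input 1, 2 and 3 the count was 5, 3 and 3 in that order. Of 10 oligodendrocyte markers 7 were lower, as were 3.29% of all genes, with summed levels of 1098 to 1233 RPKM in inputs and 378 to 576 RPKM in IP, with 4, 3 and 4 called when input 1, 2 and 3 were left out and 4 when IP 2 was. All 3 erythroid markers tested were higher (0.892% of all genes), and the 4 listed summed to 14.1 to 50.3 RPKM in inputs and 202 to 567 RPKM in IP. Leaving out input 2 or input 3 left 0 erythroid calls. Leaving out input 1, IP 2 or IP 3 left 1. These fits also made far fewer calls over all genes. Genes higher in IP numbered 13, 4 and 6 after inputs 1, 2 and 3 were dropped in turn, instead of 110. Dropping IP 2 left 16 of them and dropping IP 3 left 29. Genes lower in IP numbered 22, 17 and 33 after the same inputs were dropped, and 51 after IP 2 was, instead of 406. The smaller counts are thus not particular to these lists. None passed by limma among 9 pan-neuronal, 8 astrocyte, 3 microglial or 8 region markers tested. At an unadjusted p under 0.05 there were 3 pan-neuronal markers higher, 2 astrocyte markers lower, 0 microglial markers, and 2 region markers higher and 2 lower. Of all genes 5.04% were higher and 19.3% lower at such a p. Without IP 1, 2 pan-neuronal and 2 region markers were higher and 2 astrocyte markers lower, where 443 genes were higher and 1250 lower over the whole table. With the challenge as a block 1 astrocyte and 2 region markers were lower, as were 3.99% of all genes. Summed levels were 4123 to 5575 RPKM in inputs and 3604 to 7204 RPKM in IP for pan-neuronal markers, 298 to 411 and 288 to 310 for astrocyte markers, and 8.09 to 18.6 and 6.26 to 10.6 for the 7 listed microglial markers. The 10 region markers summed to 153 to 254 RPKM in IP. Of 6 endothelial markers 1 was listed, at 0.280 to 0.626 RPKM over the 6 libraries. The tissue is labelled preoptic neurons. Of the marker lists, 9 of 11 pan-neuronal, 8 of 8 astrocyte, 10 of 10 oligodendrocyte, 7 of 8 microglial and 10 of 13 region markers had an entry, and the region markers Sim1, Rax and Foxd1 had none. The part of these cell types in the Gal and Galr1 values was not tested.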

How the data were processed

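The values are RPKM, not log-transformed, that the authors deposited in 1 table with a column for each library. Reads were placed on genome build mm9 according to the submitters' processing notes; aligner, counter and gene models: not given in the sources used here. Per the labels' protocols, 0.5 mm brain sections were cut, the anterior hypothalamus was dissected and cDNA was amplified before library preparation, which can distort levels of scarce transcripts. Every listed value lies above 0.1 RPKM, so genes at or below that level in 1 library may have been left out. The sources used here do not state such a rule. RPKM hold no read counts, and the absolute depth is unknown.

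Values were analysed as log2(RPKM + 1), which understates folds of low genes such as Galr1, for genes that reached 1 RPKM in 3 or more libraries. IP and Input were compared by limma 3.58.1 (R 4.3.3, trended variance prior), 2-sided, without a block, with Benjamini-Hochberg adjustment over all genes tested and a threshold of 0.05. On simulated data for 12328 genes the fit called 19% of 100 genes changed by 1 on the log2 scale, 76% of 100 changed by 2, and 5 unchanged genes. Its noise was drawn independently for each gene and library. Effects shared by many genes of a library were not part of it, so these values are not error rates of the real data. Python 3.11.15 served for descriptions and plots. The labels give both fractions of a challenge the same number, which was taken as pairing them. The pairing was used in the blocked fit, the sign flips, and the ratios and changes within challenges. The share of genes with IP above Input in all 3 challenges used it too, and the main fit did not. Deviations from group means correlated by 0.05, 0.61 and 0.27 across genes within challenges 1, 2 and 3; input 1 correlated with IP 2 by 0.16 and input 3 with IP 1 by 0.18, so challenge 1 shows no pairing in these values.

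The members and gene lists were chosen with earlier results of these data known. Lists were matched by symbol, which left out Map2, a pan-neuronal marker listed under an older symbol. Named were the members, the 5 nearest profiles of each, and from each list up to 4 called genes per direction, or the 2 with the smallest p; the called genes of the activity, erythroid and glial lists are given as counts. Alternatives were pseudocounts, filters, scalings, no trend, the block and leaving out each library.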

Additional observations from a re-analysis of the deposited data

How the results depend on the processing

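Galr1 kept a positive fold in all 13 alternatives that gave a value, with log2 folds of 1.05 (pseudocount 5) to 2.48 (pseudocount 0.1), and kept its call in 7 of them. With a filter of 5 RPKM it was not tested. Gal kept a positive fold in all 14, from 0.41 to 1.86, and passed in none. The change in the log2 ratio of Galr1 to Gal was 0.74 with a pseudocount of 1 and 0.72 to 2.13 without 1 library, and sign flips within challenges as a replicate block gave an exact permutation p = 0.5, where 3 pairs cannot go below 0.25, so that it could not have passed.

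Over all genes, 516 were called. Median scaling gave 249 calls (121 higher and 128 lower in IP) and quantile normalization 253 (129 and 124). The fit with the replicate block called 656 (164 and 492). Leaving out 1 library gave 21 (without input 2) to 1693 calls (without IP 1), 4 to 443 of them higher and 17 to 1250 lower. The cause was not tested. The block ended no call of Galr1, Pcsk1, Vgf or Kcnj3, and Gal had no call with or without it.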
